A study of Mus musculus with 2 samples.

Results

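The genes of mouse chromosome 1 were followed in their order along the chromosome, in B16F10 melanoma cells carrying a stable NRF3 plasmid or a stable GFP plasmid. A gene was taken when its probe set was numbered to chromosome 1 and carried a gene symbol in the platform annotation, which gave 1082 of the 19505 named genes of the array. B16F10 is a pigmented mouse melanoma line. It had been co-transfected with a plasmid for NRF3 or for GFP and a puromycin resistance vector, and was selected with puromycin. Both populations then received forskolin, which raises cellular cAMP, for 5 days. The GFP cells, labelled Fsk-oeGFP, are thus the control for the NRF3 cells, labelled Fsk-oeNrf3, and no cells without forskolin enter the comparison. Total RNA of each population was hybridised to 1 single-colour Affymetrix array. There were 2 arrays in all and no replicates, so no difference has an error, an interval or a p-value. The populations were separate transfections with their own selection, and whether each was 1 clone is not given in the labels. NRF3 expression and any other difference between these 2 populations therefore cannot be told apart. In RNA from whole cultures, fewer cells of a type and less RNA per cell cannot be told apart either.

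The NRF3 protein, product of Nfe2l3, belongs to the cap'n'collar transcription factors. It pairs with small MAF proteins and binds the antioxidant response element, a short motif also bound by its relatives NRF1 and NRF2. Most mammalian genes are transcribed from a promoter of their own, but genes of a tandem family, such as the clade B serpins or the olfactory receptors, lie side by side. Setting differences in gene order shows whether neighbours differ together or whether single genes stand apart from the region they lie in.

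The values are log2 expression on the scale of the robust multi-array average (RMA), and every difference given is NRF3 minus GFP on that scale. Detection required that at least 1 of a gene's values lay at or above 5.89, the overall median for named probe sets. A gene with only 1 such value was detected through that array alone, so the direction of its difference was fixed by this rule. Of the 1082 genes of chromosome 1, 552 were detected, or 51.0%, against 52.1% of all named genes. The genes were numbered from 1 to 552 by gene start in the RefSeq table of assembly GRCm38.p6. That table was used for the order only, since the build behind the array is not given in the sources used here. As a guide to background, control rows with neg in their name had medians of 6.12 (GFP array) and 6.37 (NRF3 array), and a value under these is called dim.

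Nfe2l3 itself, on chromosome 6, went from 6.04 in the GFP cells to 10.1 in the NRF3 cells. All 9 melanocyte markers were detected, at 11.7 to 19.1 in the GFP cells and 13.1 to 18.9 in the NRF3 cells. Of 6 leukocyte, 5 fibroblast, 4 endothelial and 4 epithelial markers on the array, 0 were detected, and the highest of these values was 5.88. The chromosome 1 list of 24 immune cell genes, which holds Ptprc, Fcer1g and Cd48, also had 0 detected members. That 0 depends on the members chosen. Immune genes of the chromosome outside the list were detected, such as Ly96, at 9.44 and 10.6, and the dim Cd247, at 5.90 and 5.83 (GFP and NRF3 cells).

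Of the detected genes at least 2-fold above their neighbours, the RefSeq promoter table held 33 of 42, and of those as far below 39 of 50. Eya1, Fn1, Gpc1 and Ly96 are not in it and were not searched. Among the genes it held, 4 carried the core of the antioxidant response element, and their promoter sequences are given. The core was searched as TGACNNNGC on both strands. Beside them stand Kcnj13, the lowest gene of the chromosome by its difference, and Psmd1, a proteasome subunit gene that went against its neighbours. Each is the 250 bases before the first gene start that the RefSeq promoter table (GRCm38.p6) lists, written 5′ to 3′ on the gene's own strand, with the core in capitals.

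Ubxn4, chr1:128243887-128244136, plus strand: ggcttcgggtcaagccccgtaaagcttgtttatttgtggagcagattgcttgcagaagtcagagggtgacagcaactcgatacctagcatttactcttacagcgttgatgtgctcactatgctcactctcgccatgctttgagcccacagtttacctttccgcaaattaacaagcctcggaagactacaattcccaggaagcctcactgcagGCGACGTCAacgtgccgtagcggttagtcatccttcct

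Cdk18, chr1:132139686-132139935, minus strand: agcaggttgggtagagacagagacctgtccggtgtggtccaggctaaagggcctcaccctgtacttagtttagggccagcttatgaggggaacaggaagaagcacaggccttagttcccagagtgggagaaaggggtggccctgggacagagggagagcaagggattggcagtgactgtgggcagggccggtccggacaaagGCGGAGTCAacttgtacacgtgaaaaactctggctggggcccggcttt

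Dnajb2, chr1:75236173-75236422, plus strand: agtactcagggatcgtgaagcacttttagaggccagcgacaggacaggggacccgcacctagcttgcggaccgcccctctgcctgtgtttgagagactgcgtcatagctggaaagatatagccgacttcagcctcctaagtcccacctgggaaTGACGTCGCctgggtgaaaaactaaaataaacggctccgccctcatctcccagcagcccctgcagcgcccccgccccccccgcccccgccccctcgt

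Suco, chr1:161876683-161876932, minus strand: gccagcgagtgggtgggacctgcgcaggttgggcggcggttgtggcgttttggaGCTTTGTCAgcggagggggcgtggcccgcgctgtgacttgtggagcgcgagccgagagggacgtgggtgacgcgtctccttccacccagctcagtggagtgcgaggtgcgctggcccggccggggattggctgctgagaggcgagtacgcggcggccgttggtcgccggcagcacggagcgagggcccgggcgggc

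Kcnj13, chr1:87394730-87394979, minus strand: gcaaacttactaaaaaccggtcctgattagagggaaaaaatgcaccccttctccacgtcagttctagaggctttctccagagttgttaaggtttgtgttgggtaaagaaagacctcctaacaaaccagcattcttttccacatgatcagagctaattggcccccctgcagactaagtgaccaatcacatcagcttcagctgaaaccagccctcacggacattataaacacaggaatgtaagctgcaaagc

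Psmd1, chr1:86064369-86064618, plus strand: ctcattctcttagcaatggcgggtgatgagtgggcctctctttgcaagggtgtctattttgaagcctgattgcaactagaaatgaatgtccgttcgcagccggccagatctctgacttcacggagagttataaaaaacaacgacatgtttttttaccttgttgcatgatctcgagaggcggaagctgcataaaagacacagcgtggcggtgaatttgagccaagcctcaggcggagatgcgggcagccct

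The core begins 38 bases before the start of Ubxn4, 48 before that of Cdk18, 97 before that of Dnajb2 and 196 before that of Suco. In the windows of Kcnj13 and Psmd1 these letters were not found. Ubxn4, which encodes an endoplasmic reticulum protein of protein degradation, went from 10.9 in the GFP cells to 11.6 in the NRF3 cells, above its neighbours. Cdk18, Dnajb2, a chaperone gene of the DNAJ family, and Suco lay below theirs. The 3 genes had differences of -4.13, -1.59 and -1.25. A match therefore occurred on both sides. The table held 475 of the 552 detected genes, and 48 of these windows, or 10.1%, held the core, the same share as in the 27025 genes of the table. Those 27025 include genes not detected here, so the 2 sets are unlike. For none of the motifs was a share over the detected genes of other chromosomes computed. The core was found in 1 of 33 windows of genes at least 2-fold above their neighbours and in 3 of 39 windows of genes as far below. The median difference was -0.54 with the core and -0.50 without it. The cAMP response element, searched as TGACGTCA, was found in 14 of the 475 windows, or 2.95%, against 1.62% over the table. Both motifs begin with TGAC but differ at the eighth letter, so they cannot match from the same base of a strand, and overlaps from other bases were not counted. It was found in 0 of the 33 windows of genes above their neighbours and 0 of the 39 of genes below. Its 14 genes had a median difference of -0.96, against -0.49 for the others, and set against their neighbours the medians were -0.27 and 0.01. The lowest of the 14 was Cnnm4, at -1.44, and the highest Tmem183a, at 0.10. Among them are the antiproliferative gene Btg2, at -0.998 with a dim NRF3 value, and the replication control gene Dtl, at -0.58. The E-box CACGTG, a motif of MITF and MYC among others, was found in 41 windows, or 8.63%, against 6.05% over the table. Genes with the E-box had a median of -0.36, against -0.53 for the others. The E-box was found in 1 of the 33 windows of genes above their neighbours and 5 of the 39 of genes below.

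Chromosome 1 genes were lower in the NRF3 cells as a body, and along the whole length of the chromosome. The median difference over the 552 detected genes was -0.51, a 1.42-fold lower level, with quartiles of -0.97 and -0.03. Over all 10162 detected genes the median was -0.07, and over those of the other chromosomes -0.05. Of the 552 genes, 424 had a difference under 0, or 76.8%, against 54.2% of all detected genes. No other of the 20 chromosomes compared had so low a median. Chromosome 19 was next, at -0.29, followed by chromosome 15 at -0.28 and chromosome 17 at -0.27. Chromosome 8, at 0.56, lay at the other end. With 1 array per group these distances between chromosomes were not tested.

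**Figure D1:**
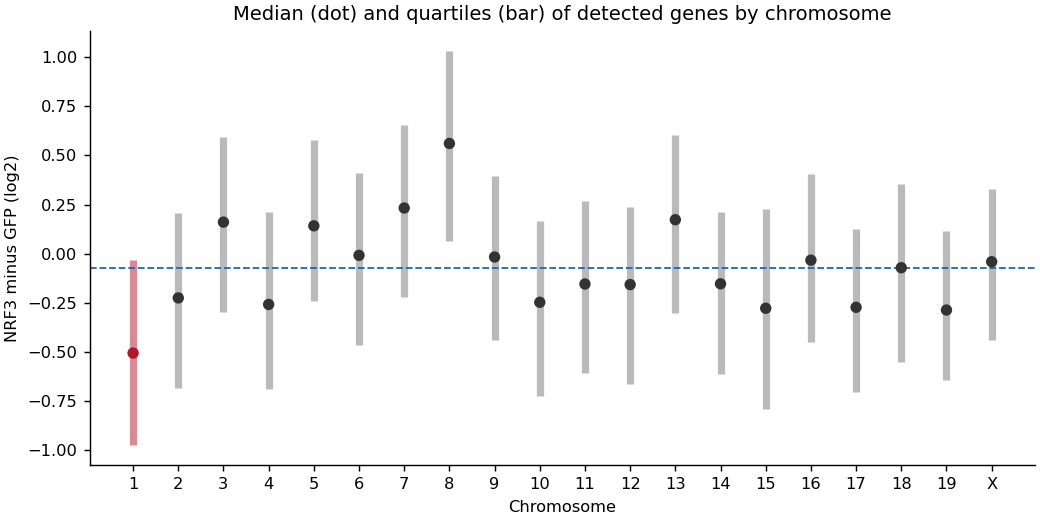
Median (dot) and quartiles (bar) of NRF3 minus GFP, in log2 units, over the detected genes of each chromosome; the dashed line is the median of all detected genes, -0.07. Chromosome 1, in red, has the lowest median, -0.51, and its upper quartile of -0.03 lies just under 0.

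Counted by size, 129 chromosome 1 genes were at least 2-fold lower, or 23.4%, where the share of all detected genes was 11.0%. Only 8 were at least 2-fold higher, or 1.45%, where the share of all was 6.75%. With a 1.5-fold rule 244 genes were lower, or 44.2% against 23.6% of all, and 33 were higher, or 5.98% against 17.0% of all. At 4-fold, 23 of the 552 genes were lower and 2 higher, where of all 10162 detected genes 179 were lower and 61 higher. Of the 129 genes at least 2-fold lower, 19 had a dim value on the NRF3 array, so the size of those differences depends on background.

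The lower level was found in each class of detected gene that was compared. With the genes split by mean level into 3 groups of 184, the median was -0.47 in the lowest group, -0.48 in the middle and -0.54 in the highest. Over the same ranges of level on the other chromosomes it was -0.05, -0.09 and -0.02. The 241 genes known to lie on the plus strand had a median of -0.50 and the 234 on the minus strand one of -0.54. By gene length the medians were -0.49, -0.54 and -0.48 for the shortest, middle and longest 184 genes. The rule had left out 117 chromosome 1 probe sets without a symbol. Of these, 49 were detected, and their median was -0.38. Of the 49, 13 were at least 2-fold lower, or 26.5%, and 1 was higher, or 2.04%. The unnamed detected probe sets of the other chromosomes had a median of -0.02, with 9.24% lower and 5.41% higher. The 530 chromosome 1 genes that were not detected had a median of 0.05, close to the 0.07 of undetected genes elsewhere.

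The lower level ran through the whole order, with no stable start or end inside it. The running median of 41 genes lay under the median of all detected genes at every one of the 552 places. It was lowest, at -0.90, at Kdm5b (place 344) and highest, at -0.13, at Bivm (place 89). Chromosome 15, with 98.0% of its places under that median, and chromosome 19, with 95.9%, came closest. Cut into 28 blocks of 20 neighbours, of which the last holds 12 genes, chromosome 1 had 28 block medians under -0.07, between -0.96 and -0.09. On the other chromosomes 236 of 488 blocks, or 48.4%, lay under it. A block median of -0.5 or lower was found in 13 of the 28 blocks, or 46.4%, and in 5.94% of the others.

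**Figure D2:**
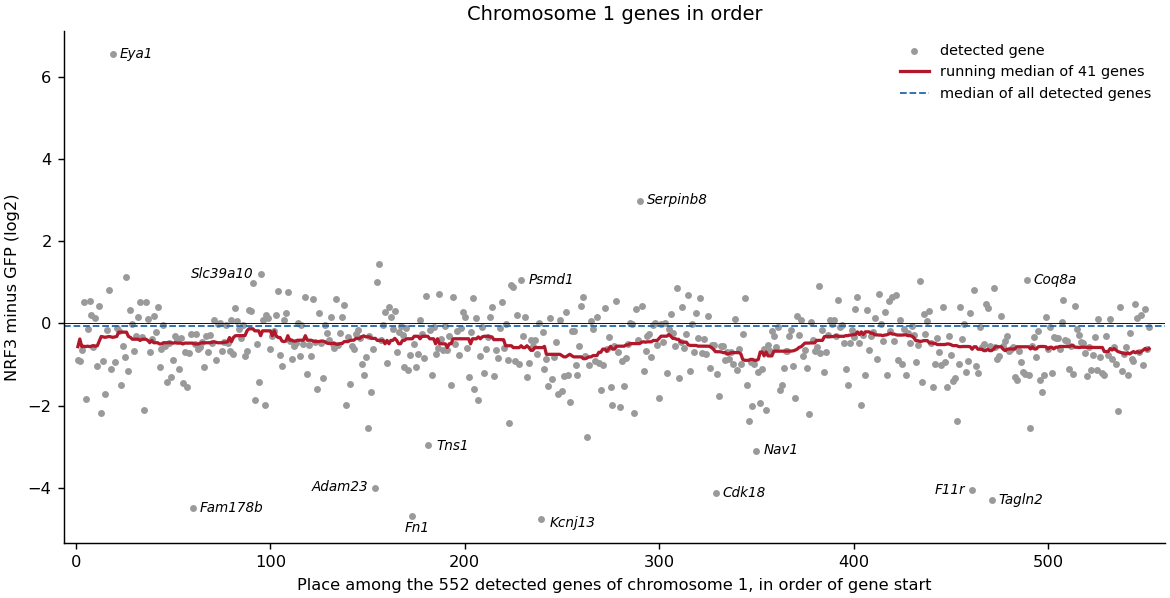
Each point is 1 detected gene, placed by its order along chromosome 1 (x axis, place 1 to 552) with its NRF3 minus GFP difference in log2 units (y axis). The running median of 41 genes stays between -0.90 and -0.13, under the dashed median of all detected genes at -0.07, while Eya1, at 6.54, and Kcnj13, at -4.77, are the extremes.

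The shift was already there at the first detected genes. Mrpl15, a mitochondrial ribosomal protein gene and the first in order, went from 11.2 in the GFP cells to 10.3 in the NRF3 cells, a difference of -0.90. Lypla1, a lysophospholipase gene, followed at -0.92, and Tcea1, a transcription elongation factor gene, at -0.64. Atp6v1h, a subunit gene of the vacuolar proton pump, went the other way at 0.52, and Pcmtd1 lay at -1.83. The far end was more mixed. The last 5 genes were Utp25 at 0.20, A130010J15Rik at -1.02, the kinase gene Camk1g at 0.35, Cd46 at -0.61 and Cr1l, a complement regulator gene, at -0.09. When the genes outside a run were held at the median of the other chromosomes, the best run went from Mrpl15 at place 1 to the zinc exporter gene Slc30a1 at place 544. It took in all detected genes but the last 8. The first, middle and last 184 genes of the order had medians of -0.42, -0.59 and -0.51.

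Within the chromosome some stretches lay lower than others. The lowest blocks were block 18, from Adipor1 to 2310009B15Rik, at -0.96, block 13, from Dgkd to Olfr1412, at -0.93, and block 23, from Hsd17b7 to Usf1, at -0.93. Block 18 had 19 of 20 genes under 0. It holds the aminopeptidase gene Rnpep at -2.36, the microtubule-associated Nav1 at -3.10, the p53 target Phlda3 at -1.94 and the kinesin gene Kif21b at -2.10. Block 13 holds the pigment granule transport genes Mlph, at -1.73, and Rab17, at -1.64, beside the histone deacetylase gene Hdac4, at -1.25. The highest was block 5, from Mrps9 to Nemp2, at -0.09, with 11 of 20 genes under 0. In it the zinc importer gene Slc39a10 at 1.19 stood near Cavin2, a gene of caveolae, at -1.99, and the iron exporter gene Slc40a1 at -1.43.

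**Figure D3:**
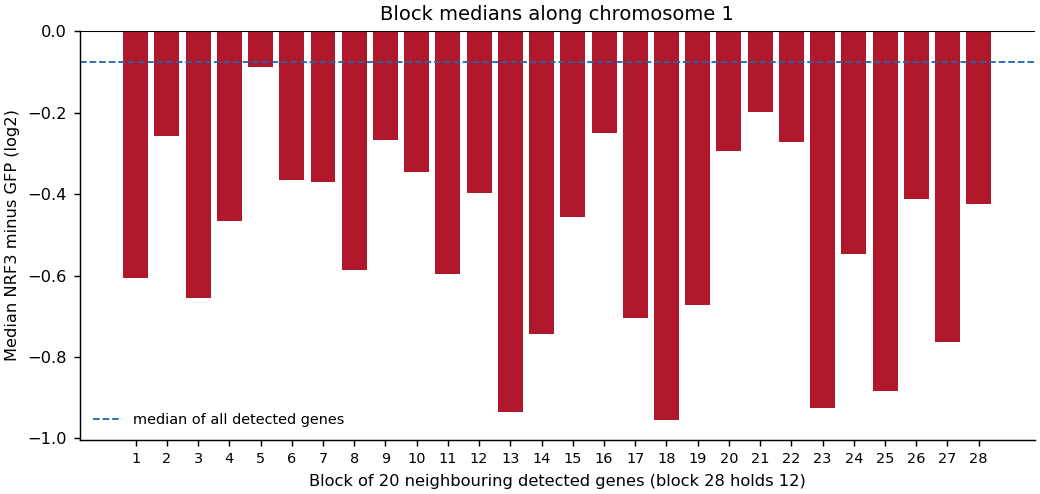
Bars give the median NRF3 minus GFP difference (log2) of each block of 20 neighbouring detected genes, in order along chromosome 1. All 28 bars end under the dashed median of all detected genes, -0.07, with block 5 the nearest to it at -0.09 and block 18 the farthest at -0.96.

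The edges of these stretches were not stable. The single run that best set itself off from the rest of the chromosome went from Cdk18 (place 329) to Kif21b (place 355). Its 27 genes had a median of -0.998, against -0.48 for the other 525, and 25 of them lay under 0. It was chosen by these values, so this is a description. Giving the run a median of its own lowered the summed absolute deviation by 1.65%. The best run on each other chromosome did so by 1.02% on chromosome 11 to 8.49% on chromosome 8. At its left edge Slc45a3 and the transcription factor gene Elk4, at -0.54 each, met Cdk18 at -4.13, Tmcc2 at -1.22 and Dstyk at -1.76. At its right edge Tmem9 at -1.12 and Kif21b at -2.10 met Ddx59 at -0.53 and Kif14, a kinesin gene of cytokinesis, at -0.68. With alternate genes used to place a run and the others to read it, the run did not recur. The odd-numbered genes placed a higher run at places 291 to 325, with a median of -0.03, where the even-numbered genes had -0.69 against -0.44 outside. The even-numbered genes placed a lower run at places 316 to 376, with -0.88, where the odd-numbered genes had -0.64 against -0.56 outside. The Pearson correlation between the differences of adjacent genes was -0.06 over 551 pairs, given as a description across genes that share both arrays.

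Against this lowered course, 42 genes lay at least 2-fold above the median of their 40 nearest detected neighbours, or 7.61%, where the share over all 10144 ordered genes was 6.61%. At least 2-fold below lay 50 genes, or 9.06%, where the share of all was 8.86%. Single genes thus stood apart from their neighbours about as often as elsewhere. Of the 129 genes that were at least 2-fold lower, 79 lay within 2-fold of their neighbours. Of the 42 genes above, 34 had a difference within 2-fold, and 16 had a dim GFP value. Of the 50 genes below, 9 had a dim NRF3 value.

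Eya1, a developmental transcription co-activator and phosphatase (NCBI gene 14048, place 19), lay farthest above. It went from 6.87 in the GFP cells to 13.4 in the NRF3 cells, a difference of 6.54, where its neighbours had a median of -0.36. The GFP value lay under the upper quartile of the control rows, 7.52, so the size of the difference may depend on background. Lactb2, the gene before it, lay at -1.11 and Terf1, a telomere protein gene and the one after it, at -0.94. Eya1 was thus higher between neighbours that were lower. Serpinb8, an intracellular protease inhibitor of the serpin family (place 290), went from 5.00, which is dim, to 7.98. It was detected through the NRF3 array alone, so the detection rule fixed its direction. Its neighbours Vps4b and Cdh19 lay at -0.42 and 0.42. No other named clade B serpin gene of chromosome 1 was detected.

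Psmd1 encodes a large non-ATPase subunit of the regulatory particle of the proteasome (NCBI gene 70247, place 229). It went from 13.8 in the GFP cells to 14.8 in the NRF3 cells, a difference of 1.05 or 2.07-fold, and lay 1.62 above its neighbours. Itm2c before it lay at -0.99 and Armc9 after it at -0.31. Coq8a, a gene of coenzyme Q synthesis (place 489), went from 7.25 to 8.31, 1.65 above its neighbours. It stood between Cdc42bpa at -1.22 and Psen2, a presenilin gene of gamma-secretase, at -1.26, so that it was higher amid genes that were lower. Slc39a10 went from 8.13 to 9.32, and Ly96, the gene of the TLR4 co-receptor MD-2, from 9.44 to 10.6. The other 2 genes at least 2-fold higher were Fam78b, at 1.03, and the gene model Gm13749, at 1.45, both with dim values on each array. Kdm5b, a histone H3 lysine demethylase gene, was higher by 0.61 amid neighbours with a median of -0.91. The olfactory receptor genes Olfr1410 and Olfr1412, the nuclear body genes Sp100 and Sp140, and Mptx2 also lay above their neighbours by 1.26 to 1.52. All of these but Olfr1412 had dim values on both arrays. These dim genes, like Fam78b and Gm13749, were detected through the NRF3 array alone, so the detection rule fixed their direction. The undetected genes of the chromosome, whose values all lay below the floor, had a median of 0.05 as given above.

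Among genes below their neighbours, Fn1, the fibronectin gene (NCBI gene 14268, place 173), was the farthest. It went from 11.6 in the GFP cells to 6.88 in the NRF3 cells, a difference of -4.68 where its neighbours had -0.35. Atic, before it, lay at -0.76 and Mreg, 2 places on, at -1.06. Kcnj13, an inward rectifier potassium channel gene (NCBI gene 100040591, place 239), went from 14.6 to 9.81, a 27.3-fold lower level. Gigyf2 before it lay at 0.02 and Atg16l1, an autophagy gene, after it at -0.22, so its immediate neighbours were hardly lower. Both its values lay well above the control rows. Tagln2, an actin-binding transgelin gene (place 471), went from 11.7 to 7.43. It stood between Pigm at -0.54 and Mptx2 at 0.86.

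Cdk18, a cyclin-dependent kinase gene (place 329), went from 11.2 to 7.08. Adam23, which encodes a catalytically inactive ADAM protein that binds integrins (place 154), went from 10.7 to 6.67, while the next gene, Fastkd2, of mitochondrial RNA, went from 7.89 to 8.89. F11r, the gene of the junctional adhesion molecule A (place 461), went from 8.62 to 4.56, and Tns1, the tensin 1 gene of focal adhesions (place 181), from 7.32 to 4.37. Fam178b (place 60) went from 9.30 to 4.81. F11r, Tns1 and Fam178b were detected through the GFP array alone, so the detection rule fixed their direction. Their NRF3 values were dim, so their differences of -4.06, -2.95 and -4.49 depend on background. Those of Fn1, Tagln2, Cdk18 and Adam23 lay under 7.85, the upper quartile of the control rows on that array, so their size may depend on it too. Nrp2, a neuropilin gene for semaphorins and VEGF, went from 13.9 to 11.4, and Nav1 from 11.8 to 8.67. The F-box gene Fbxo36 went from 10.7 to 8.28 and Gpc1, a glypican gene, from 13.5 to 10.7. These 4 genes lay above the upper quartile of the control rows on both arrays.

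**Figure D4:**
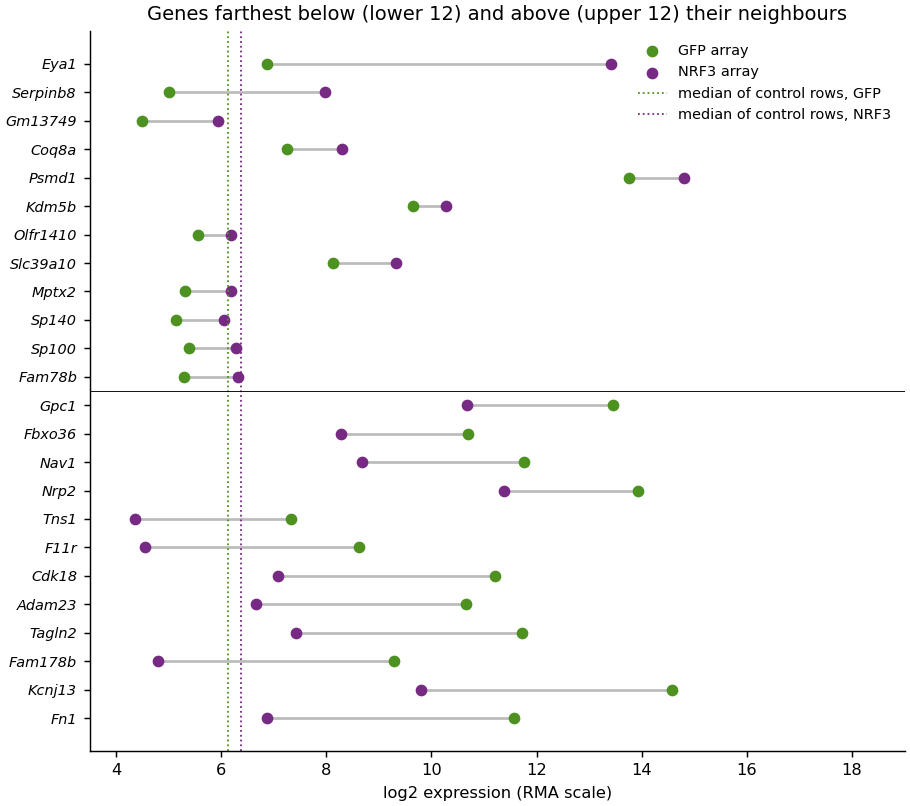
Log2 expression (RMA scale) on the GFP array (green) and the NRF3 array (purple) for the 12 genes farthest below and the 12 farthest above the median of their neighbours; dotted lines mark the medians of the control rows, 6.12 and 6.37. Eya1 spans 6.87 to 13.4, 7 of the upper 12 genes have a GFP value left of its dotted line, and 3 of the lower 12 have an NRF3 value left of its own.

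Grouped by function, the detected members had a median under 0 in each of 8 lists. Differences between lists were not tested, the members' values overlap widely, and the lists were chosen with earlier results known. Counts are read against the 1.5-fold shares given above, 23.6% lower and 17.0% higher for all detected genes, and 44.2% lower and 5.98% higher for chromosome 1. Of the 233 entries in 9 lists, 201 were chromosome 1 genes on the array and 123 were detected, with Pax3 and Atf6 in 2 lists each. Of 22 detected genes of cell division and DNA replication, 16 were at least 1.5-fold lower, where all detected genes had 23.6% and chromosome 1 had 44.2%, and 0 were higher. Under 0 lay 21, where chromosome 1 had 76.8%. Their median was -0.93, or -0.34 against their neighbours. Kif21b lay at -2.10 and Cenpl, a centromere protein gene, at -1.97, with a dim NRF3 value. The list was drawn broadly, and members such as Kif21b, Kifap3 and Rbbp5 are not particular to cell division or DNA replication. The replicative helicase genes Mcm3 and Mcm6 went from 13.3 to 12.1 and from 13.8 to 12.6. Hjurp, the chaperone gene of the centromeric histone, lay at -1.53 and Aspm, of the spindle poles, at -1.50. Xrcc5, the Ku80 gene of DNA end joining, lay at 0.08 and Orc2, of the origin recognition complex, at -0.41.

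Of 11 detected matrix and adhesion genes, 8 were at least 1.5-fold lower and 1 was higher, beside 44.2% lower for chromosome 1 and 23.6% for all. The median was -0.998, or -0.38 against the neighbours. Fn1 and F11r were the lowest, followed by Tns1 and by Gpc1 at -2.77. Ddr2, a collagen receptor kinase gene, went from 12.9 to 11.9, and Lamc1, a laminin chain gene, lay at -0.67. Igfbp2, at 0.65 with dim values, and the cadherin gene Cdh19, at 0.42, were the highest. Igfbp2 was detected through the NRF3 array alone, and F11r, Tns1 and Hmcn1 through the GFP array alone. The detection rule thus fixed the direction of these genes. Of 13 detected genes of pigment cells and organelle transport, 7 were lower and 0 higher, a share lower not far from the 44.2% of chromosome 1 and above the 23.6% of all. The median was -0.72, or -0.16 against the neighbours. Besides Kcnj13, the lower ones were Bcl2, the survival gene, at -2.18, Ivns1abp at -1.83, Mlph at -1.73, Rab17 at -1.64, Mreg at -1.06 and Rab3gap2 at -0.72. Pax3, a transcription factor gene of the melanocyte lineage, went from 13.6 to 13.2, at the level of its neighbours. Atp6v1h, at 0.52, and Rab3gap1, at 0.40, were the highest.

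The mitochondrial list had counts close to those of chromosome 1 as a whole. Among 20 detected members, 8 lay 1.5-fold or more lower and 0 higher, beside 44.2% lower for the chromosome and 23.6% for all. The median was -0.54, or -0.01 against the neighbours. Ndufs1, of complex I, went from 12.64 to 10.97 and Mars2, the mitochondrial methionyl-tRNA synthetase gene, from 8.16 to 6.94. Cox5b, of complex IV, differed by -0.50, and Hspd1, the mitochondrial chaperonin gene, by -0.80. Mff, of mitochondrial fission, lay at 0.51 and Coq10b at 0.02.

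Of the genes of protein folding, ubiquitin and degradation, 4 of 20 detected members lay 1.5-fold or more lower and 1 higher. That share lower is near the 23.6% of all detected genes. Members ran from -1.59 to 1.05, with a median of -0.32, or 0.20 against the neighbours. Beside Psmd1, the signalosome subunit gene Cops5 lay at 0.41, Ufc1, of the UFM1 pathway, at 0.40, the stress sensor gene Atf6 at 0.39 and Tor1aip2 at 0.57. Dnajb2 at -1.59 and Usp40 at -0.86 were the lowest. Of 15 detected transcription factor and regulator genes 3 were lower and 3 higher, near the shares of all detected genes, 23.6% and 17.0%. The median was -0.12, or 0.40 against the neighbours. The higher ones were Eya1 and the dim Sp100 and Sp140. Sp100 and Sp140 were detected through the NRF3 array alone, and Btg2, among the lower ones, through the GFP array alone. The detection rule thus fixed the direction of these 3 genes. Atf3, an early stress and cAMP response gene, went from 13.14 to 11.00, Btg2 lay at -0.998 and Creb1, the cAMP response factor gene, at -0.04.

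Of 11 detected receptor and signalling genes 4 were lower and 1 higher, a share lower between the 23.6% of all and the 44.2% of chromosome 1. The median was -0.47, or 0.11 against the neighbours. Ptpn4, a phosphatase gene, lay at -1.83 and Stk25 at -1.01, while the kinase gene Ikbke lay at 0.61 and the Wnt receptor gene Fzd5 at 0.41. Of 11 detected lipid and sterol genes 2 were lower and 0 higher, a share lower near the 23.6% of all. The median was -0.24, or 0.24 against the neighbours. The lower ones were Ephx1, the microsomal epoxide hydrolase gene, from 15.3 to 13.7, and Hsd17b7, of cholesterol synthesis, from 9.60 to 8.04. Mogat1, at 0.39 with dim values, and Plekhm3, at 0.14, were the highest members.

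**Figure D5:**
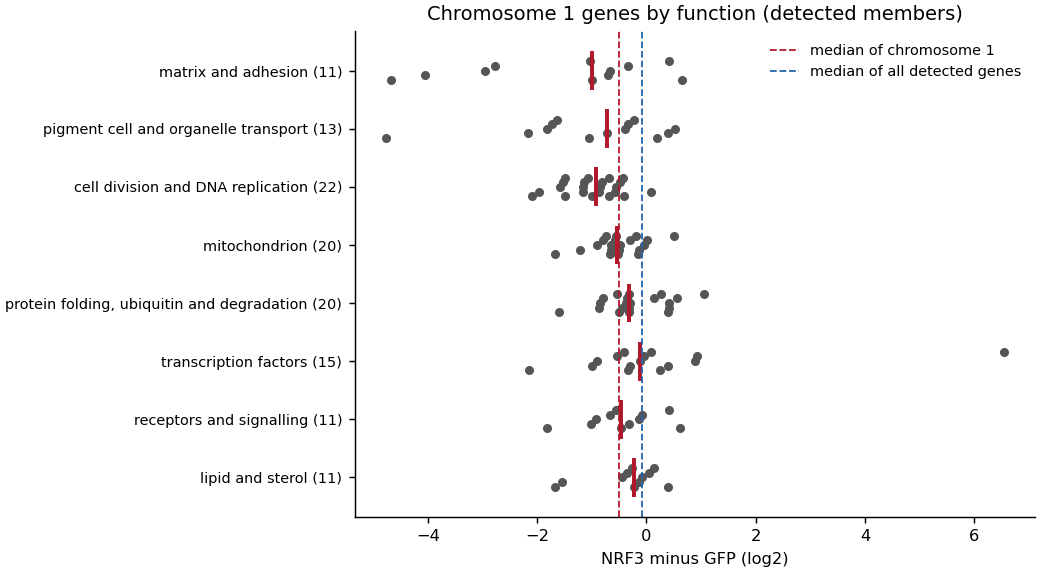
Each point is a detected chromosome 1 gene, placed by its NRF3 minus GFP difference in log2 units, in 8 lists by function with the number detected in brackets; short red bars are list medians. Those of matrix and adhesion (-0.998) and cell division (-0.93) lie left of the chromosome's median of -0.51, and that of transcription factors (-0.12) lies near the median of all detected genes.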

How the data were processed

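The 2 arrays are described by their deposited value table of 28846 rows, which holds log2 expression per probe set made by the authors with RMA in Affymetrix Expression Console, per the submitters' processing notes. For the software's version and the array's genome build, the answer is: not given in the sources used here. Scaling of probe intensities between arrays, which RMA does, can hide a shift shared by all genes, and the medians of detected genes still differed, at 9.44 for GFP and 9.31 for NRF3. No read depth exists for arrays, and their number limits the precision.

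The platform annotation named 19572 probe sets, and all matched the RefSeq table (GRCm38.p6) by gene number. Every one of the 1082 chromosome 1 genes had 1 probe set, and the table put all of them on chromosome 1. Differences were NRF3 minus GFP, with no test since each group has 1 array. A run was placed as the stretch of at least 20 detected genes (10 with every second gene) that left the smallest sum of absolute deviations from the median inside and the median outside. Neighbours were the 20 nearest detected genes on each side. The named genes are the 12 farthest above and below their neighbours, 5 genes on each side of each edge, the 2 highest and lowest of each list and a fixed set of 12; genes beside a named gene and others given as examples were chosen after their values were seen. The members and lists were chosen with earlier results of these data known. The run and neighbour procedures were tested on simulated data. Python 3.11.15, pandas 2.3.3, NumPy 2.4.6, statsmodels 0.14.6 and matplotlib 3.10.9 were used. Alternatives were other scalings, floors, size rules, gene orders and neighbour numbers.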

Additional observations from a re-analysis of the deposited data

How the results depend on the processing

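The lower median of chromosome 1 kept its direction under every alternative run. It was -0.38 after median centring and -0.42 after quantile normalization, which moved the median of all detected genes from -0.07 to 0.05 and 0.03, and -0.18 with no floor over 1082 genes. Set against the other chromosomes it was -0.45 as reported, -0.45 and -0.47 after those scalings, and -0.20 with no floor. The count at least 2-fold lower was 77 of 308 genes with the floor at the 75th percentile and 244 with the 1.5-fold rule. The count at least 2-fold higher was 13 of 552 after median centring, or 2.36% against 9.20% of all detected genes. It was 3 of 308 with the higher floor, or 0.974% against 7.53% of all. No floor gave 25 of 1082, or 2.31% against 4.87%. Where both values reached the control rows' medians it was 5 of 468, or 1.07% against 6.32%. With the 1.5-fold rule 33 of 552 were higher, or 5.98% against 17.0%. With the higher floor 17 of 308 genes lay at least 2-fold above and 31 as far below their neighbours. The shares over all ordered genes were not computed at that floor, so these counts have nothing to be read against. The best run depended on how it was placed, and the following rules placed other runs than Cdk18 to Kif21b. With no floor it went from Wdr64 to Nek2, with a median of -0.44. With at least 50 genes it was a higher stretch, Acbd6 to Lmx1a, at -0.24 against -0.55 outside. In the order of probe set numbers it was also a higher stretch, Rd3 to Farsb, at -0.30 against -0.56 outside. The run median was -0.51 with the outside held at the other chromosomes' median. In the run placed by the even-numbered genes, the odd-numbered genes had -0.64. The cause was not tested. The last 2 of these and the control-row floor were chosen after seeing the data. For the 24 genes farthest from their neighbours, 108 of 108 values under the alternatives kept their side and stayed at least 2-fold away, though 12 of the genes were not detected with the higher floor. No paired analysis was possible because each group has 1 array. What limits every value is that single array per group, and for dim genes the background of the array.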
